A study of Mus musculus with 13 samples.

Results

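The effect of losing p53 in mouse gut that keeps 1 working CKIα allele was measured by setting 2 CKIα Het/p53 KO arrays against 2 CKIα Het arrays, 4 of the 13 arrays in the series. The members were chosen by the array titles alone, and all 16721 genes that passed a filter on dim values were tested, whatever their level in either group. CKIα Het mice carry the gut-specific knockout of casein kinase Iα (CKIα, gene Csnk1a1) in heterozygous form. CKIα Het/p53 KO mice carry the same heterozygous knockout and come from the cross with p53 knockout mice. All 4 arrays therefore share the CKIα heterozygous state, and neither group is wild type. The labels give enterocytes, the absorptive cells that line the intestine, as the cell type and 129/SVJ as the genetic background; age, the stretch of gut and the driver of the gut-specific deletion are not given in the sources used here. The other groups set beside them are CKIα KO (homozygous gut knockout), CKIα KO/p53 KO and CKIα Het/p21 KO, with 2 arrays each. Values are log2 intensities, on which a difference of 1 is a doubling.

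CKIα primes β-catenin, through which Wnt signals reach the nucleus, for destruction. p53 (gene Trp53) is a transcription factor that is held at low levels by the ubiquitin ligase Mdm2 and its partner Mdm4. Stress such as DNA damage or oncogene activity stabilises p53, which then binds paired 10-base half-sites in DNA and activates genes of growth arrest, DNA repair, cell death and metabolism. In unstressed intestine p53 activity is generally low, and mice without p53 develop a gut of largely normal appearance. The comparison asks which transcripts depended on p53 when CKIα was reduced but not removed.

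No gene passed the test after p53 loss in CKIα Het gut. Of 16721 genes, 0 were called higher and 0 lower by limma at an adjusted p under 0.05 (0% called), and the smallest adjusted p was 0.788. An unadjusted p under 0.05 was found for 941 genes (5.63%), of which 556 were higher (3.33%) and 385 lower (2.30%) without p53. The absolute log2 difference exceeded 1, a 2-fold change, in 70 genes, or 0.419% of those tested. The precision allowed more than a bare null: the median standard error was 0.18, and for 15256 genes (91.2%) the 95% interval of the log2 difference lay within 2-fold in both directions. The same loss of p53 in CKIα KO gut was measured on 4 other arrays with the same fit. It gave 78 higher and 38 lower calls (0.694% in all, 0.466% higher and 0.227% lower) and 793 genes past 2-fold, or 4.74%. Pooling gives both comparisons the same standard error by construction. The SD between replicates over genes was 0.289 in CKIα KO and 0.269 in CKIα KO/p53 KO. It was 0.204 in CKIα Het and 0.227 in CKIα Het/p53 KO. Leaving out single arrays gave 0 calls in CKIα Het except without CKIα Het replicate 1, where there were 2, while the 116 in CKIα KO became 7 without CKIα KO replicate 1 and 1445 without either CKIα KO/p21 KO array.

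The arrays themselves were alike in overall brightness, with medians between 4.96 and 5.12 over the 12 fitted arrays. The replicate SD over genes was 0.204 in CKIα Het and 0.227 in CKIα Het/p53 KO, against 0.341 in the most variable group, CKIα KO/p21 KO. In each group replicate 1 carried the expression pattern of a male and replicate 2 that of a female: Xist, the RNA that silences an X chromosome, read 3.49 and 3.75 on the first arrays of CKIα Het and CKIα Het/p53 KO and 9.56 and 8.91 on the second, and the Y-linked Eif2s3y read 8.67 and 8.72 against 3.09 and 3.23. Each sex was thus present once in each group. The epithelial cytoskeletal gene Vil1 (12.34 and 12.50 in CKIα Het, 12.41 and 12.50 in CKIα Het/p53 KO) and the brush border phosphatase Alpi (11.94 and 11.97 against 11.91 and 12.11) were at like levels on all 4 arrays. Both were chosen after their values were seen. Of 28 absorptive enterocyte genes tested, 25 had a log2 difference above 0 and 3 below, with a median of 0.25. Trp53 itself was not analysed here, so the p53 genotype could not be checked from its own transcript. Csnk1a1 read 10.61 and 10.69 in CKIα Het and 10.78 and 10.71 in CKIα Het/p53 KO, a difference of 0.10 ± 0.13 (SE). It read 10.55 and 10.65 in CKIα KO too, so this probe set did not separate the CKIα genotypes; where its probes lie relative to the deleted part was not determined here.

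The genes that regulate p53, or feed back on it, came first. Among 18 tested, 0 had an unadjusted p under 0.05, the median log2 difference was -0.15 beside 0.03 over all genes tested, and 8 were lower on both CKIα Het/p53 KO arrays than on both CKIα Het arrays (16.9% of all genes were). Mdm2, the ligase that degrades p53 and is itself a p53 target, read 8.50 and 9.13 in CKIα Het and 8.77 and 8.58 in CKIα Het/p53 KO. The groups overlapped, and the difference was -0.14 ± 0.21 (SE; 95% interval -0.61 to 0.33). Mdm4, which binds and restrains p53, read 8.47 and 8.36 against 8.27 and 7.87, a difference of -0.34 ± 0.22. Trp53inp1, a p53-induced protein that promotes p53 phosphorylation, read 9.16 and 9.04 against 9.02 and 8.28 (-0.45 ± 0.23), with the lower mean resting mostly on replicate 2.

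Ccng1, which encodes cyclin G1, a feedback regulator long used as a p53 reporter gene, was read in both settings. It read 9.55 and 9.66 in CKIα Het and 9.36 and 9.06 in CKIα Het/p53 KO, so that both arrays without p53 were lower, but by only 0.39 ± 0.23 on the log2 scale (interval -0.92 to 0.13, adjusted p = 0.886). In CKIα KO gut it read 10.63 and 11.44, and 9.06 and 8.91 without p53, and there it fell by 2.05 ± 0.23 (adjusted p = 0.0137). The arrays without p53 lay between 8.91 and 9.36 in both settings, whereas those with p53 were 9.55 and 9.66 in CKIα Het and over 10 in CKIα KO. The difference between the 2 effects had an unadjusted p of 0.000551 and did not pass over all genes (adjusted p = 0.17).

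**Figure D1:**
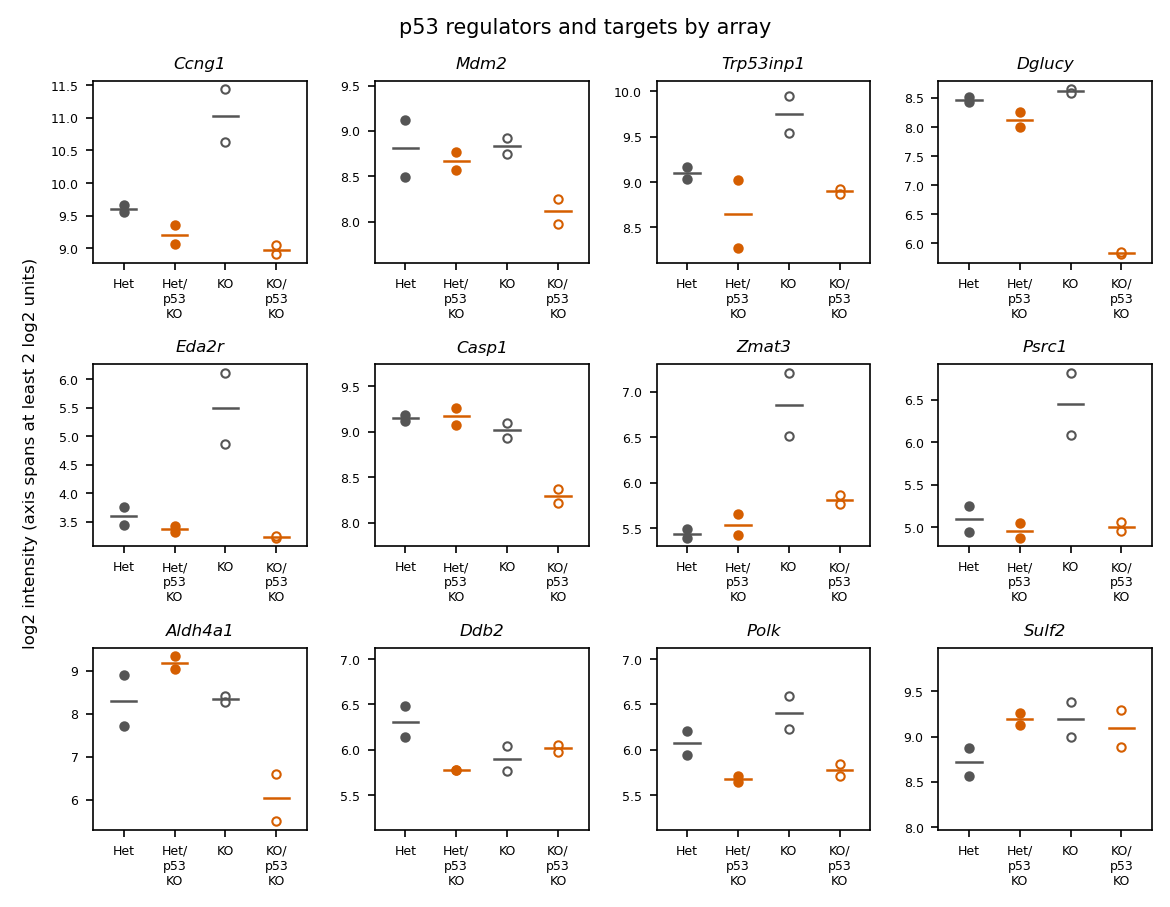
Log2 intensity (vertical axis, a scale of its own in each panel) of 12 genes that regulate p53 or are activated by it, for each of 2 arrays (points) and their mean (bar) in CKIα Het and CKIα Het/p53 KO (filled) and CKIα KO and CKIα KO/p53 KO (open). For Ccng1, Eda2r, Zmat3 and Psrc1 the CKIα KO arrays stand above the other 3 groups, which lie close together; Ddb2, Polk and Sulf2 are the targets with an unadjusted p under 0.05 in the CKIα Het comparison.

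To show what p53 recognises at such genes, the 250 bases before each RefSeq gene start (GRCm38.p6) were searched for a full p53 site, that is 2 adjoining p53 half-sites (20 bases, both strands, up to 2 mismatches, with the core C and G of both half-sites kept). A full site was found in 5 of 66 p53 target genes with a promoter sequence (7.58%; Ccng1 and Mdm2 counted among them) and in 48 of 13169 tested genes (0.364%), and a single half-site of 10 bases with no mismatch in 12 (18.2%) against 973 (7.39%). The 5 sites are printed below with 20 bases on each side, 5′ to 3′ on the gene's strand, the site in capitals. Ccng1 (chr11:40755442-40755501, minus strand) and Rps27l (chr9:66946276-66946335, plus strand) had the closest matches, each with 1 mismatch. Cd80 (chr16:38458802-38458861, plus), Zfp365 (chr10:67912686-67912745, minus) and Ckap2 (chr8:22185983-22186042, minus) had 2.
Ccng1: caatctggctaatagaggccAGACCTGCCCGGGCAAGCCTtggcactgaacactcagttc
Rps27l: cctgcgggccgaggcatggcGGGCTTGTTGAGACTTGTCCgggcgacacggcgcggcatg
Cd80: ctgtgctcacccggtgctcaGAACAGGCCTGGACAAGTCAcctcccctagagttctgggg
Zfp365: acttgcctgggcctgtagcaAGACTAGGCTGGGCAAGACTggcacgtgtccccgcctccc
Ckap2: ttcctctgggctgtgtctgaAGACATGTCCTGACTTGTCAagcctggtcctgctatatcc
A match of letters is a description and does not show binding in these cells.

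The 5 genes with a site near the start did not share a change in CKIα Het gut. Besides Ccng1, the T cell costimulator Cd80 differed by -0.22 ± 0.18, the ribosomal protein paralog Rps27l by 0.01 ± 0.30, Zfp365, a replication stress gene, by -0.04 ± 0.14, and the spindle protein Ckap2 by 0.21 ± 0.29. Rps27l read 6.70 and 6.79 in CKIα Het and 7.09 and 6.41 without p53, with one array on each side of the controls. In CKIα KO gut the same genes differed by -0.85 (Cd80), -0.64 (Rps27l), -0.45 (Zfp365) and 0.62 (Ckap2), none called.

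The p53 target genes were followed as 3 lists with 79 members, 72 of them tested; Cdkn1a (p21), Bax, Trp53aip1, Fdxr, Gls2, Gdf15 and Sco2 were not analysed here. Over the 72, the median log2 difference in CKIα Het gut was -0.004 beside 0.03 over all genes tested. An unadjusted p under 0.05 was found for 1 target that was higher and 2 that were lower without p53, or 3 of 72 against 5.63% of all genes. The groups did not overlap in 15 targets that were lower (16.9% of all genes were) and 12 that were higher (24.8%). For 63 of the 72 the 95% interval excluded a 2-fold fall (94.6% of all genes), and for 58 it lay within 2-fold both ways.

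Among 21 growth arrest and repair targets the median was -0.07. Ddb2, a damage-binding protein of nucleotide excision repair, read 6.14 and 6.48 in CKIα Het and 5.78 and 5.78 in CKIα Het/p53 KO, a difference of -0.53 ± 0.17 (unadjusted p = 0.0132, adjusted p = 0.829). Polk, a translesion polymerase, read 6.20 and 5.95 against 5.65 and 5.71 (-0.40 ± 0.18, unadjusted p = 0.0482). Both genes were separate between the groups, yet in CKIα KO gut Ddb2 differed by 0.12 ± 0.17 and Polk by -0.63 ± 0.18. The stress kinase Plk2 had the most negative estimate of the list with a wide interval, -0.66 (-1.74 to 0.41). Gadd45a, a growth arrest gene, was at 0.22 ± 0.19, Zmat3, an RNA-binding p53 effector, at 0.10 ± 0.24, and the antiproliferative Btg2 at -0.24 ± 0.39.

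Among 20 cell death targets the median was -0.02, and 0 had an unadjusted p under 0.05. The death receptor Fas read 7.66 and 7.08 in CKIα Het and 7.15 and 6.62 in CKIα Het/p53 KO, so the groups overlapped (-0.49 ± 0.24). The p53-induced killers of the Bcl2 family were near 0: Bbc3 (Puma) at 0.18 ± 0.15 and Pmaip1 (Noxa) at -0.01 ± 0.19, with an interval of -0.44 to 0.42 for the latter. Eda2r, a receptor of the TNF family, was low on all 4 arrays, 3.75 and 3.44 against 3.43 and 3.32. The inflammatory protease Casp1 read 9.12 and 9.19 against 9.26 and 9.07, a difference of 0.01 ± 0.13.

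Among 31 targets of metabolism, stress and signalling the median was 0.05. Sulf2, a sulfatase that edits heparan sulfate, was the target with the smallest p that was higher without p53: 8.57 and 8.87 in CKIα Het and 9.13 and 9.25 in CKIα Het/p53 KO (0.47 ± 0.20, unadjusted p = 0.04). Aldh4a1, a mitochondrial enzyme of proline breakdown, had the highest estimate of the list, 0.89 ± 0.52, with 7.71 and 8.91 against 9.04 and 9.34. Ephx1, an epoxide hydrolase, had the lowest, -0.74 ± 0.54, which rested on 1 array (7.68 and 7.86 against 7.68 and 6.39). Dglucy, a D-glutamate cyclase of mitochondria, read 8.51 and 8.42 against 8.26 and 7.99, separate but by only 0.34 on the log2 scale (interval -0.73 to 0.04). The sestrins, stress proteins that restrain growth signalling, were at 0.19 ± 0.41 (Sesn1) and 0.17 ± 0.27 (Sesn2).

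**Figure D2:**
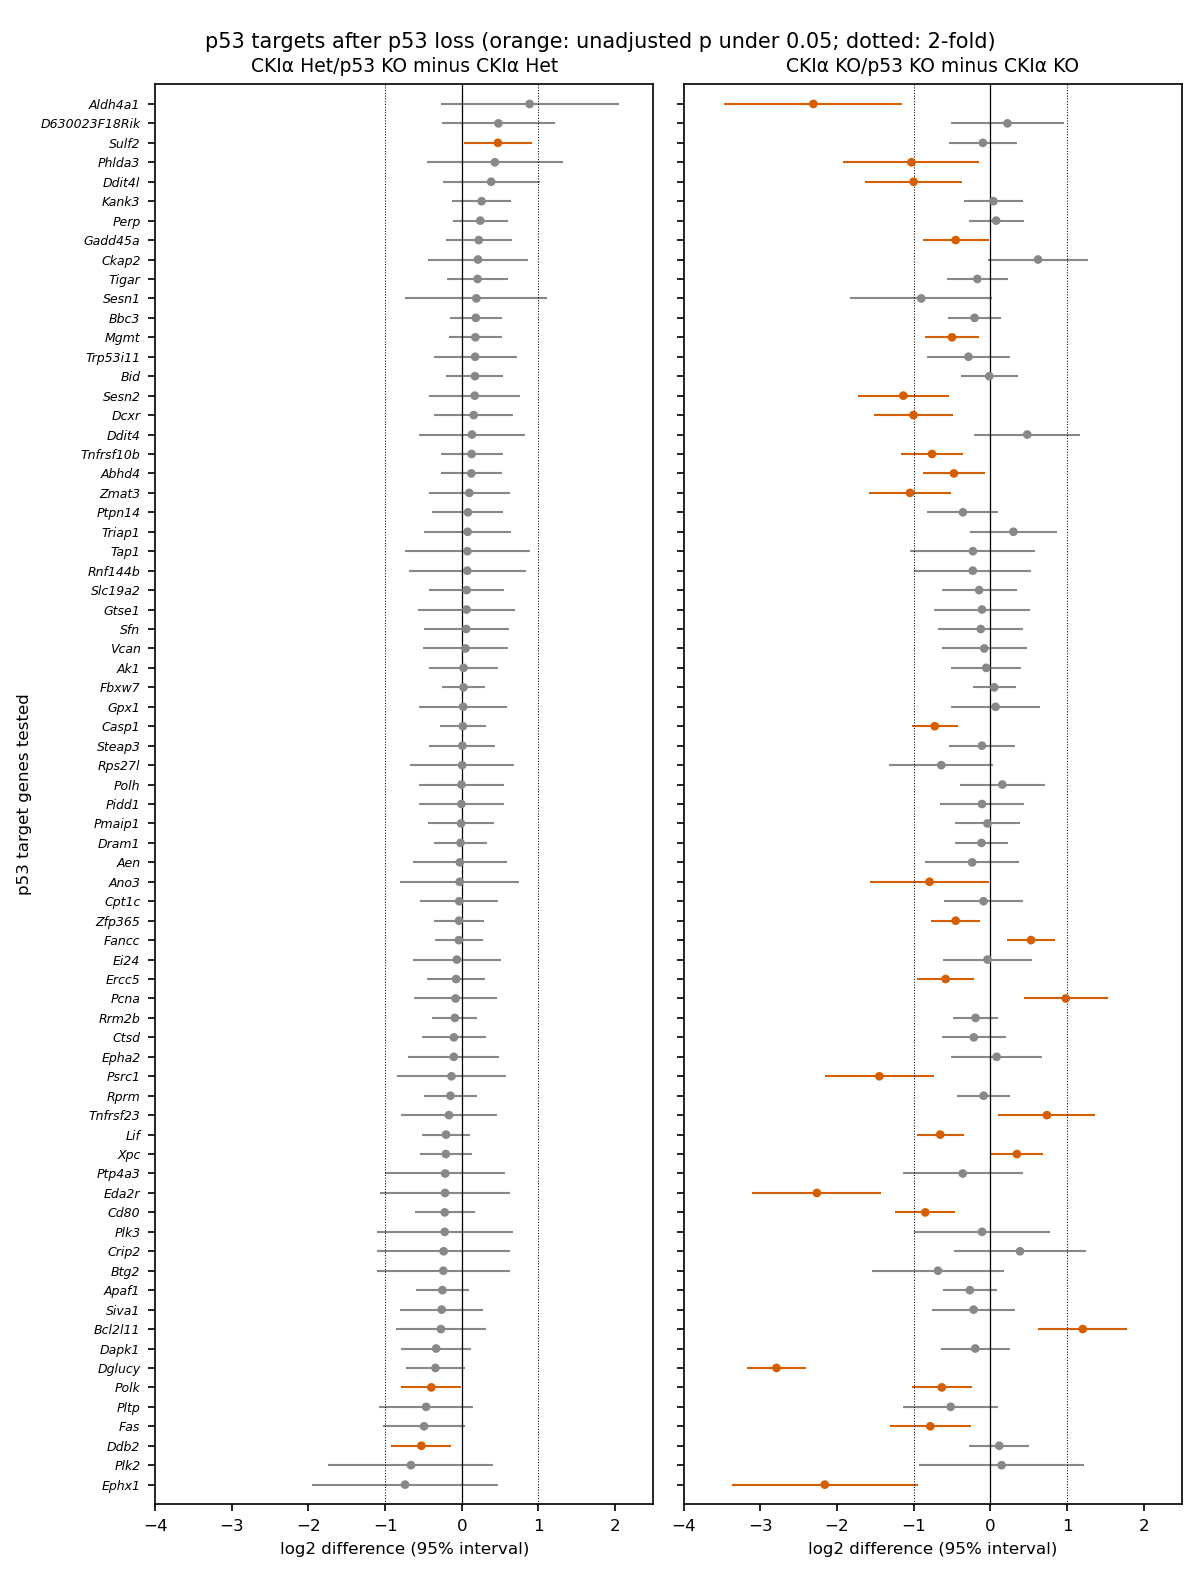
Log2 difference (horizontal axis, point) with its 95% interval (line) for the 72 p53 targets tested, ordered by the value in CKIα Het; left, CKIα Het/p53 KO minus CKIα Het, right, CKIα KO/p53 KO minus CKIα KO. Orange marks an unadjusted p under 0.05, which 3 genes reach on the left and 27 on the right; dotted lines mark 2-fold.

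The comparison in CKIα KO gut shared no array with that in CKIα Het gut and was read for the same 72 genes. There the median target was at -0.20, 22 targets were lower without p53 at an unadjusted p under 0.05 (9.43% of all genes were) and 5 higher (12.9% of all genes), and 3 fell past the adjusted threshold: Dglucy (-2.79 ± 0.17), Eda2r (-2.26 ± 0.38) and Casp1 (-0.73 ± 0.13). For the 22 that were lower in CKIα KO gut, a set chosen by those arrays, the median in CKIα Het gut was -0.01, with 11 above and 11 below 0, and 1 of them, Polk, had an unadjusted p under 0.05. The interval in CKIα Het excluded a 2-fold fall for 19 of the 22. The mean level of these 22 genes was 6.17 on both CKIα Het arrays and 6.22 and 6.12 without p53, whereas it was 6.50 and 6.94 in CKIα KO and 5.67 and 5.60 in CKIα KO/p53 KO.

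The difference between the 2 effects was tested directly. Over all genes, 3 passed (0.0179%) and 2485 had an unadjusted p under 0.05, of which 1332 had the higher effect in CKIα KO (7.97%) and 1153 the lower (6.90%). Of the 72 targets, 16 had an effect that was lower in CKIα KO at an unadjusted p under 0.05, and 6 one that was higher. Dglucy was the target that passed: p53 loss changed it by -2.45 more in CKIα KO than in CKIα Het (adjusted p = 0.0154), with 8.65 and 8.58 in CKIα KO and 5.81 and 5.85 in CKIα KO/p53 KO. The other 2 are not p53 list members. Slc38a4, an amino acid transporter, was at or below 3.97 on all CKIα Het, CKIα Het/p53 KO and CKIα KO arrays and at 7.14 and 7.16 in CKIα KO/p53 KO (difference of effects 2.98, adjusted p = 0.0496). Cyp1b1, a cytochrome P450 of steroid and xenobiotic metabolism, lay between 3.53 and 3.88 in those groups and at 6.01 and 6.57 in CKIα KO/p53 KO (2.72, adjusted p = 0.0154). The low values of both genes are near the 25th percentile of the arrays, 3.59 to 3.73, which the filter on dim values used. Their effects in CKIα Het were thus read near the floor.

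These 3 calls rest on a spread pooled over 12 arrays, and each of them ended when single arrays were left out. Without CKIα Het replicate 1, for example, the adjusted p was 0.425 for Slc38a4 and 0.126 for Cyp1b1 and Dglucy, while the sizes were 2.90, 2.80 and -2.49. Leaving out the variable CKIα KO/p21 KO group, chosen after the data were seen, gave 243 calls for the difference of the effects and still 0 for p53 loss in CKIα Het.

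Genes of proliferation, DNA damage and Wnt signalling were then read as lists. In CKIα Het gut, the median was -0.07 over 32 DNA replication genes, 0.08 over 32 mitosis genes, -0.06 over 24 genes of DNA damage checkpoint and repair and -0.05 over 28 Wnt/β-catenin targets, and 0 members of these lists had an unadjusted p under 0.05. The replication initiator Mcm10 read 6.64 and 6.93 against 6.29 and 6.58 (-0.35 ± 0.24), the anaphase activator Cdc20 6.81 and 6.72 against 6.99 and 7.41 (0.44 ± 0.24), and the Wnt feedback inhibitor Axin2 7.14 and 7.18 against 6.73 and 7.0 (-0.30 ± 0.23). For all 24 DNA damage genes and for 29 of 32 replication genes the interval lay within 2-fold, but for 10 of the 28 Wnt targets. In CKIα KO gut, on the other arrays, the same lists had medians of 1.06, 1.02, 0.64 and 1.23. There 27, 30, 13 and 23 members were higher without p53 at an unadjusted p under 0.05 (12.9% of all genes were). Of these, 2, 1, 0 and 3 were called higher (0.466% of all genes were). The effect of p53 loss was higher in CKIα KO than in CKIα Het at an unadjusted p under 0.05 for 7.97% of all genes. The lists held 23 replication, 15 mitosis, 10 DNA damage and 16 Wnt genes of that kind, none of which passed over all genes. The destruction complex and CK1 family, 14 genes that include β-catenin itself (Ctnnb1, 0.16 ± 0.14), had a median of 0.04 in CKIα Het, all within 2-fold.

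**Figure D3:**
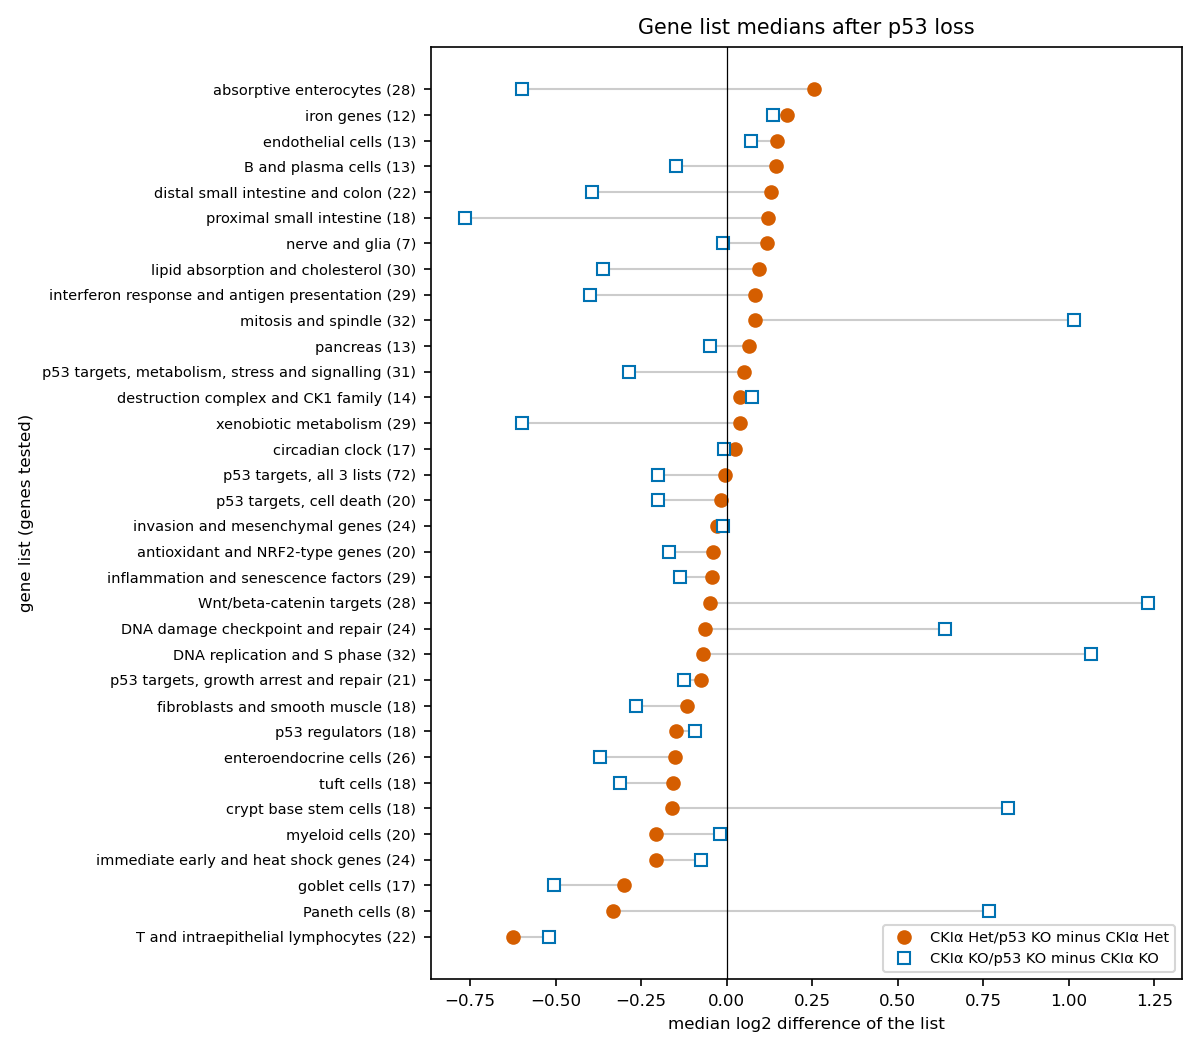
Median log2 difference (horizontal axis) of each gene list with at least 5 genes tested, for CKIα Het/p53 KO minus CKIα Het (filled circles) and CKIα KO/p53 KO minus CKIα KO (open squares); the number tested is in parentheses. The proliferation, DNA damage and Wnt lists lie within 0.1 of 0 in CKIα Het and between 0.64 and 1.23 in CKIα KO.

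Since no gene was called, the 10 genes with the smallest p in each direction are given as those that came nearest, none of which passed. Higher without p53 were Rnf208, a ubiquitin ligase (5.53 and 5.58 against 6.33 and 6.24; 0.73 ± 0.13), the magnesium transporter Nipa1 (0.63 ± 0.13), the serine protease Prss29 (0.64 ± 0.13), the stress keratin Krt6a (0.74 ± 0.15), the muscle-type enolase Eno3 (0.69 ± 0.14), Prss30, a channel-activating protease (1.33 ± 0.28), the niacin receptor Hcar2 (0.68 ± 0.15), the fatty acid elongase Elovl1 (0.65 ± 0.14), the ceramide phosphate carrier Cptp (0.70 ± 0.16) and Zfp791 (1.18 ± 0.27). Prss30 had the largest difference of these 10, with 7.85 and 8.23 in CKIα Het and 9.30 and 9.46 in CKIα Het/p53 KO. The higher level was not shared with every group that lacked p53: in CKIα KO gut Prss30 differed by -0.82 ± 0.28 and Zfp791 by -1.40 ± 0.27 without p53, opposite in sign. Nipa1 was higher without p53 in both settings (0.43 ± 0.13 in CKIα KO). Elovl1 read 8.68 and 8.80 in CKIα Het and between 9.15 and 9.68 on the other 10 arrays, so that the CKIα Het arrays were the low ones.

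Lower without p53 was, with the smallest p of all, the inflammasome sensor Nlrp1b, at 5.41 and 5.41 in CKIα Het and 3.88 and 4.21 in CKIα Het/p53 KO (-1.37 ± 0.22, unadjusted p = 0.000128, adjusted p = 0.788). It was equally low in CKIα KO with p53 present (4.09 and 3.82) and in CKIα KO/p53 KO (4.05 and 3.87), and high in both p21 KO groups (5.95 and 5.29 in CKIα Het/p21 KO, 5.53 and 5.21 in CKIα KO/p21 KO). Its level thus did not follow the p53 genotype over the 12 arrays. Zfp971 read 7.10 and 7.79 against 6.27 and 5.84 (-1.39 ± 0.25), the inhibitory myeloid receptor Lilrb4a 5.79 and 5.80 against 4.10 and 4.60 (-1.44 ± 0.28), and the decoy interleukin 1 receptor Il1r2 5.30 and 5.18 against 4.26 and 4.48 (-0.87 ± 0.19). The others were Fryl (-0.90 ± 0.18), the complex I assembly factor Ndufaf1 (-0.83 ± 0.17), the histone methyltransferase Kmt2a (-0.64 ± 0.15), Acrbp (-0.80 ± 0.19), the kinase Map3k3 (-0.51 ± 0.12) and the myosin phosphatase partner Mprip (-0.62 ± 0.15). In CKIα KO gut Acrbp was also lower without p53, by 1.00 on the log2 scale (6.02 and 5.65 in CKIα KO, 4.99 and 4.69 in CKIα KO/p53 KO). It was the only 1 of these 10 genes that was lower by more than 0.5 in both settings, and it did not pass in either.

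**Figure D4:**
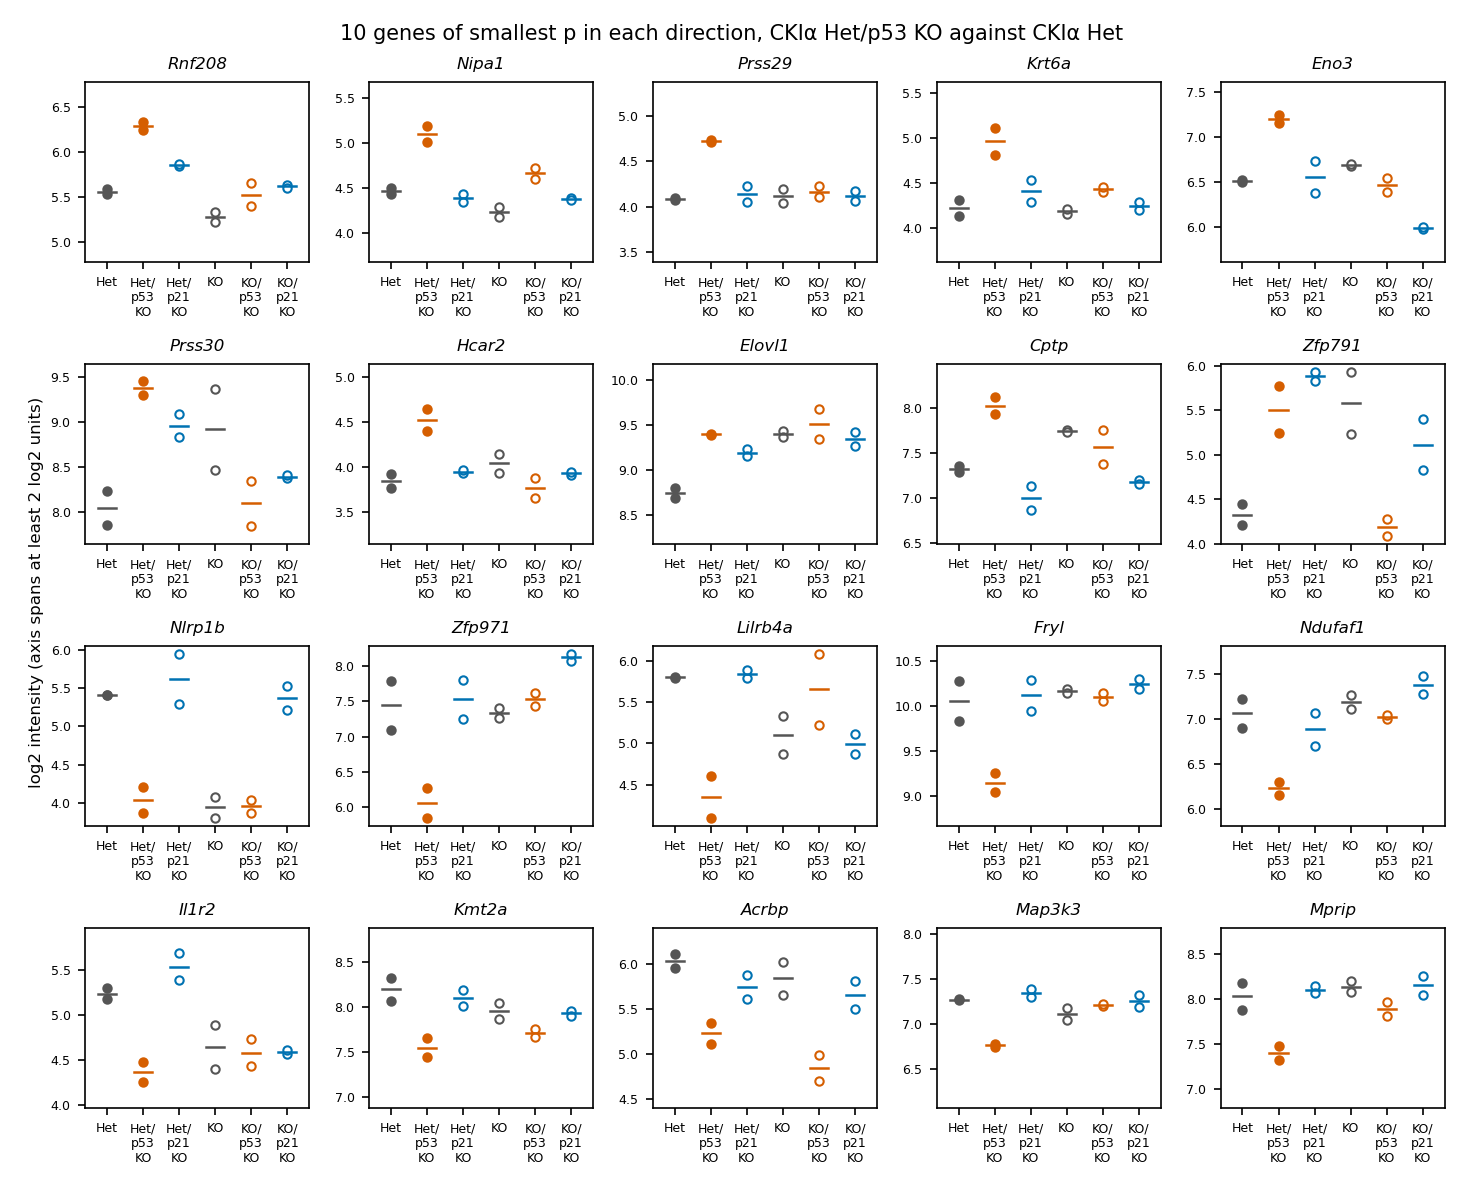
Log2 intensity (vertical axis, a scale of its own in each panel) of the 10 genes with the smallest p that were higher without p53 (first 2 rows) and the 10 that were lower (last 2 rows), for each of 2 arrays (points) and their mean (bar) in all 6 groups; filled points are CKIα Het and CKIα Het/p53 KO. In all 20 panels the filled points of the 2 groups do not overlap, and in Nlrp1b and Zfp791 the CKIα KO and CKIα KO/p53 KO arrays do not follow the p53 genotype in the same way.

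The largest differences in size were of another kind and are named here because of their values. BC018473 read 7.45 and 7.64 in CKIα Het and 3.99 and 4.20 in CKIα Het/p53 KO (-3.45 ± 0.95), yet within the CKIα KO group it read 4.19 and 8.03. The sialyltransferase St3gal4 read 4.29 and 10.92 on the 2 CKIα Het arrays and the restriction factor Trim12a 3.51 and 7.61, whereas both CKIα Het/p53 KO arrays were low (4.60 and 4.23, and 3.33 and 3.53). Both were high on both CKIα KO arrays (10.85 and 11.31, and 7.27 and 7.71). These genes were at one of 2 levels on single arrays, in replicates of 1 group as well as between groups, which gave the wide errors. Dcn, a collagen-binding proteoglycan of fibroblasts, likewise spread from 6.01 to 8.03 within CKIα Het (5.32 and 4.45 without p53; -2.14 ± 0.92), and the matrix protein Fn1 from 4.98 to 8.64 (5.22 and 4.45; -1.98 ± 1.17). The potassium channel Kcnj13, by contrast, was tight in both groups, 6.55 and 6.76 against 8.43 and 8.29 (1.71 ± 0.48, unadjusted p = 0.00514); it also read 8.50 and 8.29 in CKIα Het/p21 KO.

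Markers of the cells in the sample gave the following. Of 28 absorptive enterocyte genes tested, 25 were above 0 and 0 had an unadjusted p under 0.05, with a median of 0.25; the glucose transporter Slc2a2 read 9.59 and 11.01 against 10.91 and 11.46 (0.89 ± 0.48). CKIα Het replicate 1 was the low array of this list, and without it the median was 0.03. The ileal bile acid uptake and export genes of the distal list stood apart from it: Slc10a2, the apical bile acid transporter, read 5.91 and 7.38 in CKIα Het and 9.08 and 7.87 in CKIα Het/p53 KO (1.83 ± 0.52, unadjusted p = 0.00565), and the subunits of the basolateral exporter Slc51b (0.63 ± 0.19) and Slc51a (0.70 ± 0.29) were also higher on both arrays. These were the 3 of 22 distal genes with an unadjusted p under 0.05, and the median of that list was 0.13. The distal list ran from -1.24 to 1.83, with 15 genes above 0 and 7 below. The list of proximal small intestine genes, 18 tested, had a median of 0.12 and ran from -0.83 to 0.99. Of these, 11 were above 0, 7 below, and 0 had an unadjusted p under 0.05. CKIα Het was the low group for Slc10a2, since the other 4 groups lay between 7.52 and 9.30. Where along the gut each sample was taken is not given in the sources used here, and its part in these values was not tested.

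Goblet and enteroendocrine genes had medians below 0. Of all genes, 2.30% were lower without p53 at an unadjusted p under 0.05 by limma. Of 17 goblet cell genes, the mucus-secreting lineage, 15 were below 0 and 10 were lower on both arrays without p53 (16.9% of all genes were), with a median of -0.30 and 2 at an unadjusted p under 0.05: Creb3l1, a secretory pathway factor (6.95 and 6.91 against 6.45 and 6.44; -0.49 ± 0.19), and Sytl2 (-0.58 ± 0.25). The lineage factor Spdef was at -0.30 ± 0.16 and the mucin chaperone Agr2 at -0.46 ± 0.25. Of 26 enteroendocrine genes, 3 had an unadjusted p under 0.05, all lower: Iapp, a peptide hormone (5.5 and 4.93 against 4.34 and 4.31; -0.89 ± 0.22), the endocrine factor Neurod1 (-0.56 ± 0.19) and secretin, Sct (-0.55 ± 0.23). The median was -0.15, with 9 genes above 0 and 17 below. Of 18 tuft cell genes, a chemosensory lineage, Sh2d6 (-0.50 ± 0.16) and Rgs13 (-0.77 ± 0.28) were lower at an unadjusted p under 0.05, but the list was split, with 8 genes above 0 and 10 below. Leukotriene synthase Ltc4s had the highest estimate of the list (0.37 ± 0.32). On both arrays without p53, 5 tuft genes were higher (24.8% of all genes were) and 8 lower (16.9% of all genes). The tuft median of -0.16 became -0.0001 without CKIα Het replicate 1. The Paneth cell list, 8 antimicrobial and niche genes, had a median of -0.33 and 0 genes with an unadjusted p under 0.05, and the 18 crypt base stem cell genes a median of -0.16, also with 0. In bulk samples fewer cells of a type and less RNA per cell cannot be told apart.

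The list of T and intraepithelial lymphocyte genes, 22 tested, had the most negative median of all lists, -0.63, with 19 below 0. Of the 22, 12 were lower on both arrays without p53 (16.9% of all genes were). At an unadjusted p under 0.05, 0 were lower and 1 was higher. The mean level of the list was 7.43 and 7.48 in CKIα Het and 6.43 and 7.34 in CKIα Het/p53 KO. The surface receptor Cd7 read 9.27 and 9.67 against 7.31 and 9.0, and the cytotoxic granule protease Gzma 10.53 and 10.54 against 8.59 and 10.06, so CKIα Het/p53 KO replicate 1 was the low array for both genes and for the list mean. Between replicates of other groups the list spread as widely (7.39 and 6.17 in CKIα KO/p53 KO). Myeloid genes had a median of -0.21 over 20, and 3 were lower at an unadjusted p under 0.05 (2.30% of all genes were). They were Lyz2, a phagocyte lysozyme (8.75 and 8.58 against 7.43 and 7.59, difference -1.16 ± 0.32), and the integrins Itgam (-0.89 ± 0.27) and Itgax (-1.24 ± 0.45). Of the 20, 7 were above 0, and the mast cell protease Mcpt1 had the highest estimate of all genes tested, 2.51 ± 1.94, from 6.66 and 4.45 in CKIα Het and 6.19 and 9.94 in CKIα Het/p53 KO, where replicate 2 was the high array. A separate list of 29 inflammation and senescence genes had a median of -0.04, with 13 above 0 and 16 below. At an unadjusted p under 0.05, 1 was lower (2.30% of all genes were) and 2 higher (3.33% of all genes were). In that list the inflammatory cytokine Il1b read 5.38 and 5.66 against 3.65 and 4.37 (-1.51 ± 0.42). The epithelial oxidase Nox1 (4.66 and 4.85 against 5.94 and 5.91, difference 1.17 ± 0.44) and the nitric oxide synthase Nos2 (1.39 ± 0.55) were higher. The part of lymphocyte and myeloid RNA in the genes of smallest p, such as Lilrb4a and Il1r2, was not tested. Fibroblast genes (18, median -0.11), endothelial genes (13, median 0.15), B and plasma cell genes (13, median 0.14) and 7 nerve and glia genes (median 0.12) showed 1, 2, 0 and 1 members at an unadjusted p under 0.05.

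**Figure D5:**
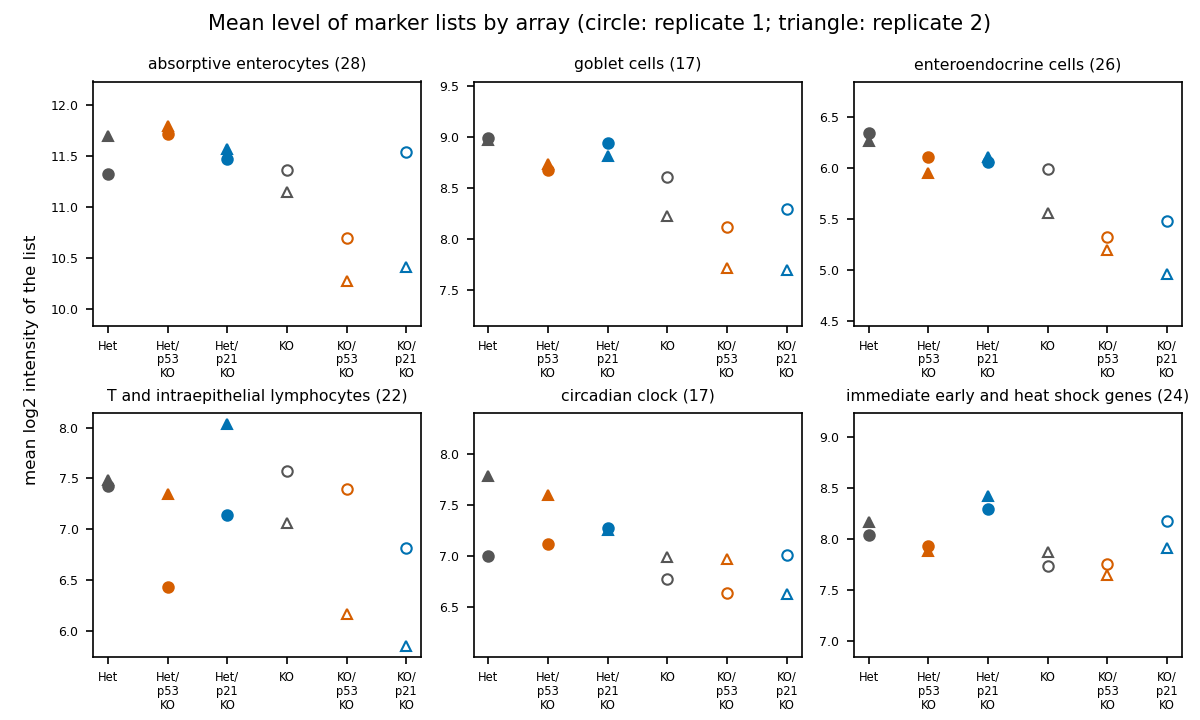
Mean log2 intensity (vertical axis) of 6 gene lists on each array of the 6 groups, replicate 1 as a circle and replicate 2 as a triangle; filled symbols are the CKIα Het groups, and the number of genes tested is in parentheses. CKIα Het/p53 KO replicate 1 is the lowest of the 4 arrays compared in the lymphocyte list (6.43 against 7.34 to 7.48), and the 2 CKIα Het arrays stand apart in the circadian clock list (7.0 and 7.78).

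Signs of handling and time of day were read the same way. The 24 immediate early and heat shock genes had a median of -0.21, with 17 below 0 and 7 above. The median was -0.26 without CKIα Het replicate 1 and -0.07 without CKIα Het replicate 2. At an unadjusted p under 0.05, 4 were lower (2.30% of all genes were). They were the nuclear receptor Nr4a1 (6.65 and 6.79 against 6.02 and 6.07, difference -0.67 ± 0.19), the chaperones Hspa8 (-0.48 ± 0.19) and Hsp90aa1 (-0.42 ± 0.17) and Ier2 (-0.39 ± 0.16). The mean of the 17 circadian clock genes differed between the 2 arrays of CKIα Het (7.0 and 7.78) and of CKIα Het/p53 KO (7.12 and 7.60). In CKIα Het/p21 KO it was 7.27 and 7.26. The clock output factor Dbp read 6.86 and 9.79 on the CKIα Het arrays and 7.77 and 9.61 on the CKIα Het/p53 KO arrays, and the core activator Arntl went the other way, 8.24 and 6.68 against 7.39 and 6.30. The median of the list was 0.02, but -0.36 without CKIα Het replicate 1 and 0.54 without CKIα Het replicate 2. The time of tissue collection is not given in the sources used here.

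The remaining lists had medians between -0.04 and 0.18 in CKIα Het gut: interferon and antigen presentation (29 genes, median 0.08, 1 lower, Mx1, at an unadjusted p under 0.05), invasion and mesenchymal genes (24, -0.03; the tight junction gene Cldn7 higher by 0.37 ± 0.15), antioxidant genes (20, -0.04; Srxn1, which repairs oxidised peroxiredoxins, higher by 0.53 ± 0.16), xenobiotic metabolism (29, 0.04), lipid absorption and cholesterol (30, 0.10) and iron genes (12, 0.18; the heme carrier Hpx higher by 0.48 ± 0.13). None of these genes passed.

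Genes that neighbour Trp53 on chromosome 11 were listed because a knockout allele brings along DNA of the mouse strain in which it was made. Of 31 tested among the 25 genes on each side, 2 were higher and 3 lower at an unadjusted p under 0.05. Sat2, an acetyltransferase gene separated from Trp53 by 2 genes in the RefSeq order, read 3.98 and 4.29 in CKIα Het and 5.14 and 5.18 in CKIα Het/p53 KO (1.02 ± 0.25, unadjusted p = 0.00245), and the lipoxygenase gene Aloxe3 was higher by 0.47 ± 0.15. The lower genes were Cyb5d1 (-0.63 ± 0.22), the SUMO protease gene Senp3 (-0.40 ± 0.16) and the remodeller gene Chd3. In windows of tested genes chosen after these values were seen, 12% of the nearest 50, 11% of the nearest 200 and 9.5% of the nearest 400 genes had an unadjusted p under 0.05, against 6.09% on chromosome 11 and 5.63% of all genes. For p53 loss in CKIα KO gut the shares in the same windows were 22%, 17.5% and 19.2%, against 22.3% on chromosome 11. Among the nearest 50 tested genes in CKIα Het, 3 were higher and 3 lower at that level. In CKIα KO the share was already high over the whole chromosome, so these windows cannot set the 2 settings against each other. Of the 20 genes of smallest p above, 4 are also on chromosome 11: Eno3, Nlrp1b, Mprip and Map3k3, with 100, 124, 275 and 1289 genes between them and Trp53. Whether linked strain DNA contributes was not tested.

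Finally, p53 loss was set against p21 loss in the same CKIα Het state. This comparison shares the CKIα Het/p53 KO arrays with the one above. Of 16721 genes, 3 were called higher and 2 lower in CKIα Het/p53 KO than in CKIα Het/p21 KO (0.0299%). Rab44, whose gene lies next to Cdkn1a, the p21 gene, on chromosome 17 with 0 genes between, read 4.96 and 5.09 in CKIα Het/p53 KO and 7.53 and 8.17 in CKIα Het/p21 KO (-2.83, adjusted p = 0.00338); it was at 5.21 and 4.97 in CKIα Het, and at 8.51 and 8.23 in CKIα KO/p21 KO, so the p21 KO groups were the ones that stood out. Ccn1, a secreted matricellular protein, read 6.62 and 6.76 against 7.93 and 8.37, with CKIα Het between at 7.14 and 7.21 (-1.46, adjusted p = 0.0483). Ocm, the calcium-binding protein oncomodulin, read 7.92 and 7.40 against 4.71 and 4.77, with CKIα Het at 6.14 and 6.72 (2.92, adjusted p = 0.0176). The proton channel Otop3 (7.34 and 6.86 against 5.03 and 5.29, difference 1.94, adjusted p = 0.00971) was also higher without p53 than without p21. So was Mettl7a1, a lipid droplet methyltransferase (8.16 and 7.91 against 6.63 and 6.34, difference 1.55, adjusted p = 0.0428). With the replicate number, which went with the sex pattern, as a block in the limma fit, 3 of these calls ended. They were Ocm (adjusted p = 0.0515), Mettl7a1 (0.0769) and Ccn1 (0.0577). Of the 72 p53 targets, 4 were higher and 6 lower at an unadjusted p under 0.05, and 0 passed; of all genes, 7.41% were higher and 4.94% lower at that level. Several other lists had medians farther from 0 than the targets (0.03). Of 24 immediate early and heat shock genes 11 were lower in CKIα Het/p53 KO at an unadjusted p under 0.05 (median -0.41), of 29 xenobiotic metabolism genes 10 were higher (median 0.90), and of 20 antioxidant genes 10 were higher and 1 lower (median 0.43). Fibroblast and smooth muscle genes had a median of -0.70 (4 of 18 lower) and lymphocyte genes one of -0.63 (2 of 22 lower). For the xenobiotic list the CKIα Het/p21 KO arrays were the low ones, with means of 9.46 and 9.26 against 10.02 and 10.39 in CKIα Het. The antioxidant means were 8.37 and 8.14 in CKIα Het/p21 KO and 8.74 and 8.88 in CKIα Het. For fibroblast genes CKIα Het/p21 KO replicate 2 was the high array (6.15, replicate 1 5.37), with 5.09 and 5.28 in CKIα Het. For the immediate early and heat shock list CKIα Het lay between, at 8.04 and 8.16. Without CKIα Het/p53 KO replicate 1, 0 of the 5 calls passed.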

How the data were processed

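Enterocyte RNA was measured on Affymetrix arrays. Per the labels, the authors extracted intensities with Affymetrix Expression Console 1.1 by RMA Sketch and normalized them by median intensities. The base of the deposited log2 values was inferred from their range. Of 35556 probe sets, the 21789 with 1 symbol in the platform annotation gave 19938 genes, using the brightest probe set where a gene had several. The 16721 genes tested exceeded the 25th percentile of the array on 2 or more of 12 arrays. All 6 groups of 2 arrays entered 1 linear model (limma 3.58.1, R 4.3.3; 6 residual degrees of freedom, two-sided, Benjamini-Hochberg over all genes, called under 0.05). Errors are standard errors of the fit and intervals are 95%. An array titled CKIα KO/p53 KO (3) was left out because its genotype label names another group. The labels call the arrays biological replicates; the number of arrays limits the precision. The fit was tested on simulated data.

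The members, comparisons and gene lists were chosen with earlier results of these data known. Named genes are p53 targets and regulators, the 10 of smallest p in each direction (predicted, Riken and accession symbols passed over), up to 4 members of each list and of the Trp53 neighbours with the smallest p, and called genes of the other comparisons. Other genes (BC018473, St3gal4, Trim12a, Kcnj13, Vil1, Alpi, Dbp, Arntl, Chd3, Mcpt1 and Ltc4s) were chosen after their values were seen. Alternatives were no filter, quantile normalization, an intensity trend, array weights, the replicate number as a block, the mean of probe sets, only the 4 arrays compared, and each array left out.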

Additional observations from a re-analysis of the deposited data

Results flagged for a closer look

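The effect of p53 loss differed between CKIα KO and CKIα Het gut, by the limma test of the difference itself, for 3 genes. For Slc38a4 the effect was 2.98 higher on the log2 scale in CKIα KO (3.21 ± 0.25 against 0.23 ± 0.25), for Cyp1b1 2.72 higher (2.68 ± 0.19 against -0.04 ± 0.19), and for Dglucy the difference was -2.45 (-2.79 ± 0.17 against -0.34 ± 0.17). Slc38a4 and Cyp1b1 were near the floor in CKIα Het with and without p53, so their effects there were read from dim values. The call for Slc38a4 (adjusted p = 0.0496) ended with no filter on dim genes (0.0651), with the replicate block (0.0991) and with the mean of probe sets (0.0502).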

How the results depend on the processing

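The call of 0 genes for p53 loss in CKIα Het held with no filter, quantile normalization, an intensity trend, array weights (smallest adjusted p 0.244), the replicate block (0.822) and the mean of probe sets. With only the 4 arrays compared it was 1, BC018473, and over the arrays left out in turn 0 to 2 (St3gal4 and Trim12a without CKIα Het replicate 1, where the high array was left alone). The 941 genes at an unadjusted p under 0.05 became 1728 with array weights, 1534 with only the 4 arrays, and 504 to 1065 with arrays left out, the lowest without CKIα Het replicate 1. For p53 loss in CKIα KO, the 116 calls became 25 with array weights, 338 with the replicate block, 7 (without CKIα KO replicate 1) to 1445 (without either CKIα KO/p21 KO array) with arrays left out, and 1445 without the CKIα KO/p21 KO group, an alternative chosen after seeing the data; the 3727 at an unadjusted p under 0.05 became 2129 to 4359 with arrays left out. For the difference of the effects, the 3 calls became 5 with quantile normalization, 2 with the replicate block, 0 to 243 with arrays left out and 243 without that group, and the 2485 became 1588 to 3301. Against CKIα Het/p21 KO, the 5 calls became 9 with quantile normalization, 14 with array weights, 2 with the replicate block, 0 to 26 with arrays left out and 26 without that group, and the 2065 became 1164 to 2330. The cause was not tested. The replicate numbers were not taken as a pairing: same-numbered arrays of CKIα Het and CKIα Het/p53 KO deviated with a correlation of 0.11, but over the 15 pairs of groups it ran from -0.16 to 0.25, although replicate 1 carried the male and replicate 2 the female pattern throughout. With the replicate block the calls ended for Slc38a4 (adjusted p = 0.0991), Ocm (0.0515), Mettl7a1 (0.0769) and Ccn1 (0.0577). Of 4780 values of the 239 genes that the naming rule chose in CKIα Het, which do not include BC018473, St3gal4 and Trim12a, none passed, and 89, in 60 genes, changed sign. Of 190 values of 38 list medians, 28 changed sign and 9, in 7 lists, moved by more than the spread between replicates. Quantile normalization moved the median of all genes from 0.03 to 0.01. The number of arrays, 2 a group, limits what the test could call.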
